A study of Mus musculus with 29 samples.

Results

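Overt neuroendocrine (NE) prostate tumors were compared with prostates of the same mouse strain that carried no palpable mass but had been assigned to an early NE class. The overt tumors, OPT-tm, were the 3 arrays titled OPT18 whose mice had a palpable tumor. The early class, Early-NE, comprised the 5 arrays with the early label Ineuntes, 4 from mice of 18 wks and 1 (Early-NE 5) from a mouse of 15 wks. These 8 arrays were part of 29, and 9 arrays titled OPT18 that carried the other early label (OPT18 Early-ADC, 18 wks, no palpable mass) served as the common starting level. Each array measured the RNA of 1 mouse prostate on an Illumina BeadChip, and 10768 genes were detected at p under 0.01 on at least 1 array.

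All 17 mice were OPN-/-TRAMP on a C57BL/6 background. TRAMP mice carry the SV40 T antigens under the rat probasin promoter, which is driven by androgens in prostate epithelium, so tumors start from an oncogene placed in these cells. OPN-/- mice lack osteopontin, the secreted matrix glycoprotein encoded by Spp1. This deletion was shared by every group compared here, so no difference below separates mice with and without osteopontin, and Spp1 itself was not analysed here. The early classes were drawn by the authors from a clustering of these same arrays over genes that set OPT-tm apart from adenocarcinoma. Closeness of Early-NE to OPT-tm was therefore partly chosen, and values of Early-NE beside Early-ADC are given as a description with no test.

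NE cells of the prostate are rare epithelial cells that store peptide hormones, granins and amines in dense-core granules and release them by the exocytosis machinery that neurons use for synaptic vesicles. NE cancers of the prostate express this machinery, together with transcription factors of endocrine and neuronal precursors, while the secretory, androgen-dependent program of luminal cells is lost. They divide rapidly, and in both mouse models and patients they grow without androgen.

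Of the 10768 genes, OPT-tm exceeded Early-NE for 1069 (9.93%) and fell below it for 1271 (11.8%), at an adjusted p under 0.05 (limma, Benjamini-Hochberg over all genes) and a change of at least 2-fold. A gene that passes both is named as called below. Without the fold threshold, 2788 genes were higher and 2596 were lower in OPT-tm. The arrays of both groups did not overlap for 5234 genes (48.6%), and the 95% interval of the difference lay within 2-fold either way for 6306 genes (58.6%). The median difference over all genes was 0.02 on the log2 scale.

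Markers of NE cells and of other cell types were read in each group. Of 8 NE markers, 7 were tested and 5 were called higher in OPT-tm, none lower. Their mean log2 signal ran between 12.20 and 12.69 in OPT-tm, between 9.87 and 11.22 in Early-NE, and between 8.57 and 9.74 in Early-ADC. The 3 groups of arrays did not overlap on this mean. For Early-NE beside Early-ADC this is no check of the class, since the classes were drawn from NE-related genes of these arrays. Markers of several other tissues were lower: the 3 basal epithelial markers Krt5, Krt14 and Trp63 were undetected in all 3 OPT-tm and detected in at least 4 of 5 Early-NE. All 3 markers each of seminal vesicle, smooth muscle, urothelium and skeletal muscle were called lower in OPT-tm. Of the 3 fibroblast markers 1 was called lower. None of the tested endothelial (2), macrophage (1) and lymphocyte (3) markers was called in either direction. The lymphocyte markers Cd3e and Cd3g were lower by 0.61 and 0.92 on the log2 scale, short of 2-fold. They were detected in 0 and 1 of 3 OPT-tm and in all 5 Early-NE, whereas Cd79b was undetected in every group. In whole organs, fewer cells of a type and less RNA per cell cannot be told apart, and the part of these losses in the rises described below was not tested.

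The distance already covered by Early-NE was measured against Early-ADC. OPT-tm differed from Early-ADC by 1417 called rises (13.2%) and 1573 called falls (14.6%). A gene among these was counted as near tumor level when the 95% interval of OPT-tm minus Early-NE lay within 2-fold. It was counted as reached only in OPT-tm when OPT-tm was also called the same way against Early-NE and the interval of Early-NE minus Early-ADC lay within 2-fold, and as graded when both were so called, Early-NE lay beyond Early-ADC in the same direction with an interval off 0, and that interval was not held within 2-fold. The interval of Early-NE minus Early-ADC serves only to sort genes: because the classes were drawn from these arrays, it tests no difference, and the class counts are a description on the log2 scale. Of the 1417 rises, 712 (50.2%) were reached only in OPT-tm, 327 (23.1%) were graded, 10 were near tumor level and 368 were not settled by these intervals. Of the 1573 falls, 1219 (77.5%) were reached only in OPT-tm, 8 were graded, 11 were near tumor level and 335 were not settled. Among the 996 genes that separated OPT-tm from Early-ADC by at least 4-fold, 0 were near tumor level, 319 were graded and 637 were reached only in OPT-tm. Reached only in OPT-tm means an early difference held within 2-fold, not that there was none. Foxm1 was so counted, yet all its Early-NE values (9.80 to 10.57) lay above the Early-ADC maximum of 9.65.

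**Figure D1:**
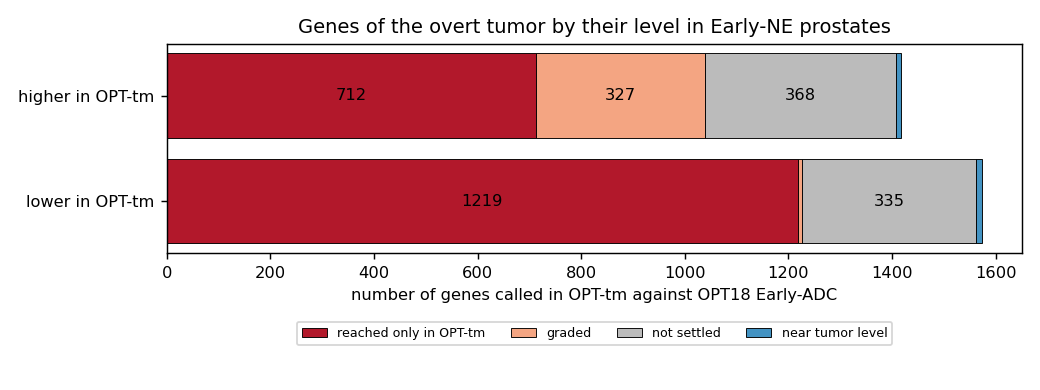
Genes called between OPT-tm and OPT18 Early-ADC, split by class for rises and for falls (bars, number of genes). Graded genes number 327 among the rises and 8 among the falls, and the near class holds 10 and 11.

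On a scale where 0% is the mean of Early-ADC and 100% the mean of OPT-tm, the median rise stood at 24.3% in Early-NE on the log2 scale and at 14.1% on the linear signal scale. The median fall stood at 12.3% on the log2 scale and at 20.0% on the linear scale. Rises were thus further along than falls on the log2 scale, and the order turned round on the linear scale. Gene lists also changed order with the scale: on the linear scale the medians of the lists gained in OPT-tm ran between 8.94% and 20.1%, while those of lists lost in OPT-tm ran between -32.2% for skeletal muscle and 46.3% for seminal vesicle secretion. Other lists mostly or only lost stood at or beyond most gained ones on that scale. They were immediate early genes (33.4%, over 3 genes), adipocytes (27.5%), fibroblasts (21.3%), the TGF-beta pathway (18.6%) and junctions (17.4%). The 5 early mice were spread widely. For rises, the log2 medians were 28.6%, 43.2%, 16.4%, 22.8% and 14.4% in Early-NE 1 to 5. For falls they were 12.9%, 24.9%, 7.91%, 12.1% and 4.93%. Early-NE 2 was the most advanced and the 15-wk mouse the least on both.

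The same mouse led gene by gene. Early-NE 2 had the highest of the 5 early values in 771 of the 1069 genes called higher in OPT-tm, whereas Early-NE 5 had the lowest in 458 and Early-NE 3 in 370. For 289 of these genes all 5 early mice lay above the whole range of the 9 Early-ADC, and for 89 genes none did. Early-NE 2 lay above that range for 932 genes and Early-NE 5 for 458. Among the 1271 genes called lower in OPT-tm, all 5 lay below the Early-ADC range for 36 and none did for 274. Early-NE 2 lay below it for 806 and Early-NE 5 for 300. Because the classes were drawn from these arrays and no share over all genes was counted, these counts are a description only. Early-NE 1 and 2 were hybridised on chip 2 and Early-NE 3 to 5 on chip 4, so a difference between the mice of either chip and the chip itself cannot be told apart. Within chip 2, Early-NE 2 lay beyond Early-NE 1, and within chip 4, Early-NE 4 lay beyond Early-NE 3 and 5 on both medians. OPT-tm lay on chips 1, 2 and 3. On chip 2, the only one with both groups (1 OPT-tm and 2 Early-NE), 2322 of the 2340 called differences had the same sign and 1691 were at least 2-fold in that direction. The same arrays had been used to make the calls, so this agreement was partly built in and is no test of the chip.

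**Figure D2:**
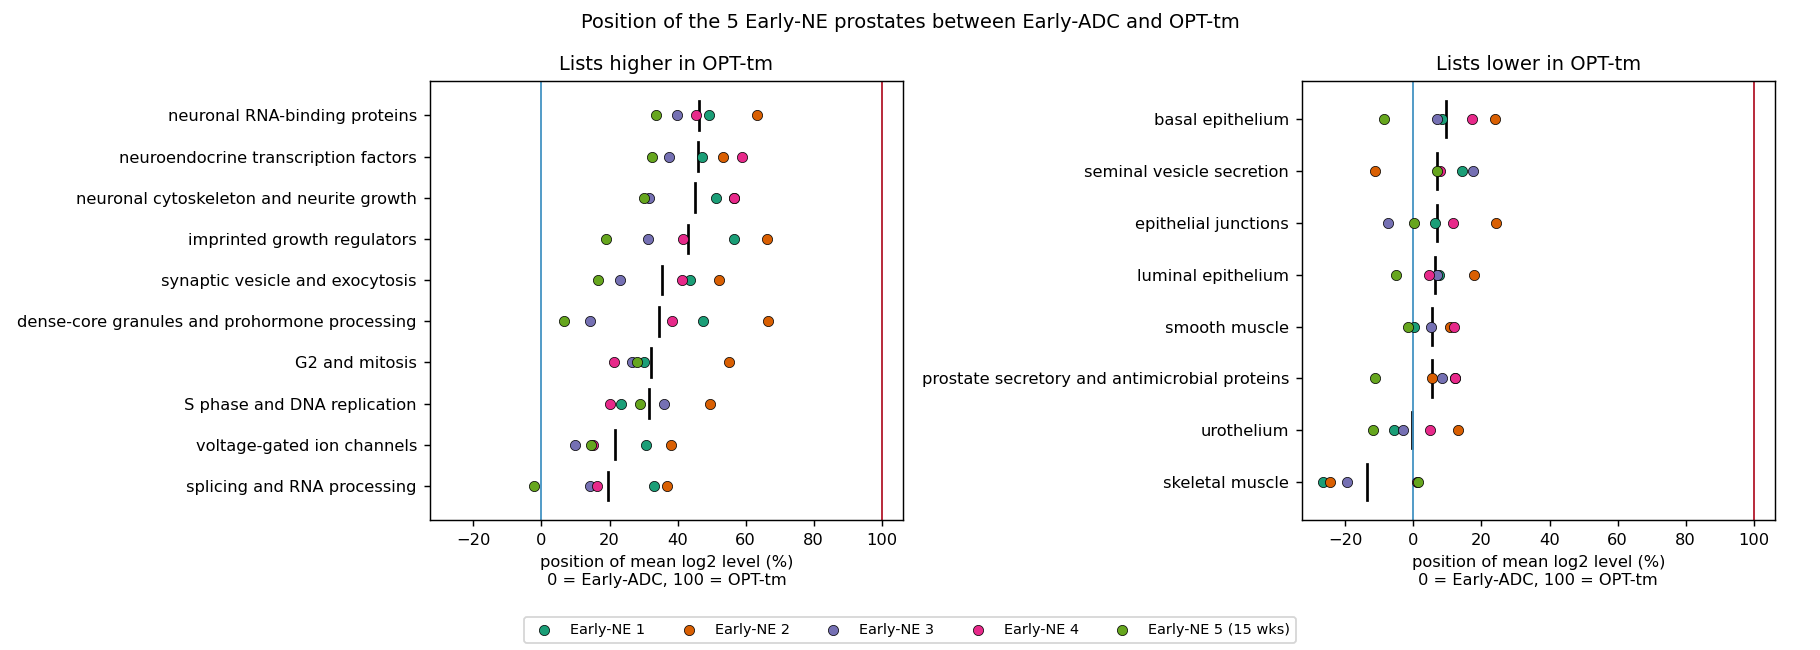
Position of each Early-NE prostate (points) between the mean of OPT18 Early-ADC (0%) and of OPT-tm (100%) on the mean log2 level of 18 gene lists, with the group mean as a bar. The 10 lists shown on the left (higher in OPT-tm) stand between 19.6% and 46.3% on average, and the 8 lists shown on the right (lower in OPT-tm) between -13.6% and 9.59%.

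Transcription factors of NE precursors were partly gained in the early class. Of 12 tested, 8 were called higher in OPT-tm than in Early-NE and 1 was called lower, with a median difference of 1.49 (log2), and 4 of the 9 that separated OPT-tm from Early-ADC were graded. Insm1, a zinc-finger repressor required for endocrine cell differentiation, had log2 signals of 14.33, 15.08 and 14.46 in OPT-tm and of 12.65, 13.14, 11.32, 12.21 and 11.84 in Early-NE. Early-ADC ran between 7.85 and 10.16, with a median of 8.19 and detection in 4 of 9 arrays. All early NE mice therefore lay between both other groups without overlap. OPT-tm exceeded Early-NE by 2.39 ± 0.35 (SE; 5.24-fold; limma adjusted p = 0.00025), and Early-NE stood at 59.3% of the way on the log2 scale but at 18.7% on the linear scale.

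Prox1, a homeobox factor of neuroendocrine and lymphatic cells, had the same order, with 13.27, 13.62 and 13.01 in OPT-tm and 11.12, 11.56, 9.94, 11.69 and 10.76 in Early-NE, against a range of 8.0 to 9.60 in Early-ADC. It was 4.88-fold higher in OPT-tm than in Early-NE (adjusted p = 0.00028) and graded, and another probe, detected on 3 arrays, gave 1.59 on the log2 scale. Isl1, a LIM-homeodomain factor of neuroendocrine, neuronal and mesenchymal cells, ran the other way. Its signals were 9.11, 8.75 and 8.08 in OPT-tm and between 11.19 and 11.57 in Early-NE, a difference of -2.71 ± 0.22 (adjusted p = 4e-06), and Early-NE lay within the Early-ADC range of 11.07 to 12.02.

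**Figure D3:**
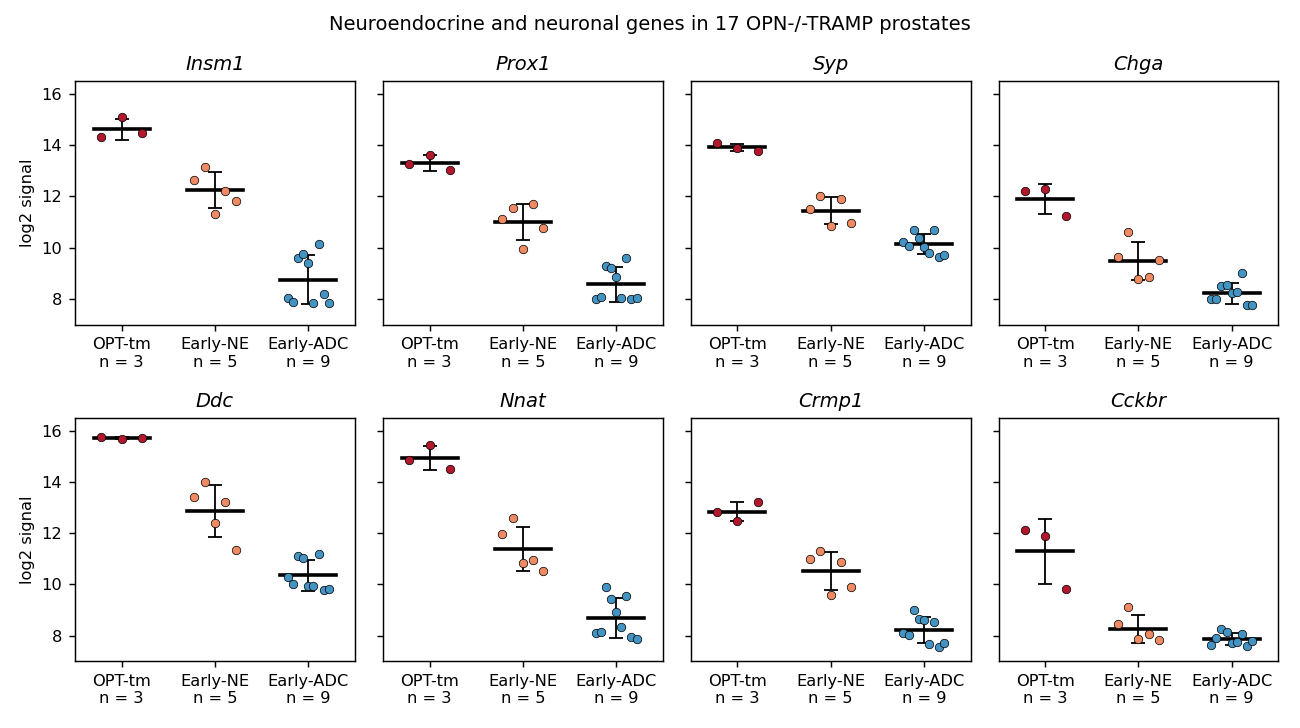
Log2 signals of 8 NE and neuronal genes in single prostates (points) of OPT-tm (n = 3), Early-NE (n = 5) and OPT18 Early-ADC (n = 9), with mean and SD. Insm1 and Ddc show the 3 groups as steps without overlap, with OPT-tm highest.

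Genes of the secretory granules varied widely between early mice. Of 15 genes of dense-core granules and prohormone processing, 8 were called higher and 1 lower (median 1.46). The mean level of this list was 10.56, 9.97 and 10.35 in OPT-tm and 9.45, 9.76, 8.92, 9.30 and 8.79 in Early-NE, with 8.41 to 9.01 in Early-ADC. Early-NE 1, 2 and 4 lay above all Early-ADC on this mean, while Early-NE 3 and 5 lay within their range. The 2 Early-ADC arrays of chip 4 had the lowest means of the 9, and on chip 2 alone the median difference between OPT-tm and Early-NE was 0.20.

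Chga, the granin chromogranin A, had signals of 12.20, 12.27 and 11.23 in OPT-tm and of 9.65, 10.62, 8.78, 8.87 and 9.53 in Early-NE. It was detected in 3 of 5 Early-NE and in 2 of 9 Early-ADC, and was 5.32-fold higher in OPT-tm than in Early-NE (adjusted p = 0.00046). Chgb, the related granin chromogranin B, was 5.23-fold higher (adjusted p = 0.0016). Scg2, secretogranin II, was the exception among the granins named here: it had 10.41 and 11.48 in OPT-tm 1 and 3 but 7.69, undetected, in OPT-tm 2, so OPT-tm overlapped Early-NE (8.14 to 9.56) and the difference of 1.12 was not called (adjusted p = 0.20). Without OPT-tm 2 it was 2.20 and called. The neuropeptide Npy fell by 2.30 ± 0.29, with signals of 8.53, 8.68 and 8.39 in OPT-tm and 11.55, 11.14, 10.83, 10.69 and 9.97 in Early-NE. All early mice except Early-NE 1 lay below the 9 Early-ADC (11.18 to 11.97), which placed Npy among the 8 graded falls.

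Amine metabolism did not move as a group: of 8 genes 1 was called higher and 2 lower (median -0.12), beside 9.93% and 11.8% of all genes tested. The riser was Ddc, aromatic L-amino acid decarboxylase, which makes dopamine and serotonin. Its signals were 15.74, 15.66 and 15.70 in OPT-tm and 13.40, 13.99, 12.39, 13.20 and 11.35 in Early-NE, with 9.80 to 11.20 in Early-ADC. The OPT-tm values were almost identical, near the top of the scale (highest log2 signal 16.116), while the early values spanned from just above the Early-ADC range in the 15-wk mouse to 13.99 in Early-NE 2. The difference was 2.84 ± 0.47 (7.14-fold, adjusted p = 0.0005). Maob, monoamine oxidase B, which degrades amines, was undetected in all OPT-tm and detected in all Early-NE, and was at least 3.23-fold lower in OPT-tm (adjusted p = 4.5e-06). Such bounds compare the higher group's mean with the lowest detected signal on the lower group's arrays.

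The exocytosis machinery was gained by most of its members. Of 17 synaptic vesicle and exocytosis genes, 13 were called higher in OPT-tm and 0 lower (median 1.91), and 9 of the 15 that separated OPT-tm from Early-ADC were graded. Syp, synaptophysin, an integral protein of synaptic vesicles and the usual NE stain, had 14.07, 13.89 and 13.78 in OPT-tm and 11.52, 12.00, 10.87, 11.89 and 10.97 in Early-NE, against 9.63 to 10.70 in Early-ADC. No group overlapped another, and OPT-tm exceeded Early-NE 5.5-fold (2.46 ± 0.26, adjusted p = 2.9e-05). Cplx2, complexin 2, which regulates SNARE-driven fusion, had 11.34, 11.01 and 11.56 in OPT-tm and 9.14, 9.72, 8.12, 8.64 and 8.45 in Early-NE. It was detected in 2 of 5 Early-NE and in 0 of 9 Early-ADC, and the rise over Early-NE was 5.61-fold (adjusted p = 8.6e-05).

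Receptors and channels that make a cell excitable rose in part. Of 9 voltage-gated channel genes, 5 were called higher and 0 lower (median 1.30), and Early-NE stood at a median of 8.94% on the linear scale. Kcnc1, a fast potassium channel subunit, was 6.39-fold higher in OPT-tm (11.83, 12.50 and 12.72) than in Early-NE (9.36 to 10.14), and all 5 early mice exceeded the Early-ADC range of 7.97 to 9.22. Cacna2d1, an auxiliary subunit of calcium channels, had 13.31, 13.22 and 12.65 in OPT-tm and 11.16, 11.53, 9.80, 10.81 and 10.26 in Early-NE. Early-NE 1 and 2 exceeded the Early-ADC range (10.21 to 10.93) and the other early mice did not, and it was counted as reached only in OPT-tm (5.1-fold, adjusted p = 0.00024).

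Gria2, an AMPA-type glutamate receptor subunit, was 6.89-fold higher in OPT-tm (12.18, 12.65 and 13.12) than in Early-NE (9.08 to 10.66; adjusted p = 0.00017). Cckbr, the receptor for gastrin and cholecystokinin, was counted as reached only in OPT-tm. It had 12.13, 11.90 and 9.82 in OPT-tm and 8.46, 9.12, 7.86, 8.08 and 7.82 in Early-NE, and was detected in all OPT-tm, in 2 of 5 Early-NE and in 0 of 9 Early-ADC. OPT-tm 3 lay more than 2 log2 units below the other tumors, and the groups did not overlap (8.09-fold, adjusted p = 0.00039, position 11.5% on the log2 scale). The ETS factor Etv1 and the zinc-finger factor Bcl11b likewise were 6.42-fold and 6.23-fold higher in OPT-tm with early positions of 9% and 11.3%.

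Neuronal structure was the program with the largest number of graded genes, though not the largest share, since all 6 such neuronal RNA-binding genes were graded. Of 20 genes of the neuronal cytoskeleton and neurite growth, 15 were called higher and 0 lower (median 1.72), and 14 of 19 were graded with 1 reached only in OPT-tm. Crmp1, a mediator of growth-cone collapse, had 12.81, 12.49 and 13.22 in OPT-tm and 10.99, 11.31, 9.59, 10.86 and 9.89 in Early-NE, against 7.57 to 9.02 in Early-ADC, which placed Early-NE at 50% on the log2 scale and 18.4% on the linear scale. A second Crmp1 probe, detected on 5 arrays, gave a difference of 1.43 beside 2.31 for the one used. Ina, the neurofilament-related internexin alpha, was 5.03-fold higher (adjusted p = 0.00039).

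A pair of members of this list, Stmn1 and Gap43, were not called and had high positions. Stmn1, stathmin, which destabilises microtubules and is made by dividing cells as well as neurons, had 13.30, 13.29 and 13.16 in OPT-tm and 11.87, 12.05, 12.73, 12.95 and 12.72 in Early-NE, against 10.27 to 11.59 in Early-ADC. The groups did not overlap, but the difference was only 1.72-fold (adjusted p = 0.019) and Early-NE stood at 66.8%. For Stmn1 the order of the early mice was turned round, with Early-NE 1 and 2, those of chip 2, lowest. The Early-ADC arrays of chip 4 (11.59 and 11.50) were likewise the highest of the 9. Mouse and chip therefore cannot be told apart for this order, and the position of Stmn1 carries the same limit. Gap43, a growth-cone protein, had 12.95, 10.90 and 13.38 in OPT-tm and 11.26, 11.95, 11.45, 12.70 and 10.64 in Early-NE, so the groups overlapped (adjusted p = 0.24), with OPT-tm 2 below 4 of the early mice, and Early-NE stood at 69.4%. Without OPT-tm 2 the difference was called at 1.56 (log2).

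Neuronal RNA-binding proteins, which direct splicing and RNA stability in neurons, were higher in 6 of 9 cases and lower in 0 (median 1.66), and all 6 were graded. Rbfox1, a splicing regulator, had 13.63, 13.85 and 14.70 in OPT-tm and 11.62, 12.36, 11.31, 12.34 and 10.74 in Early-NE, each of them above the Early-ADC range of 8.78 to 10.53. It was 5.21-fold higher in OPT-tm than in Early-NE (adjusted p = 0.00036). Elavl3, a neuronal Hu protein that binds AU-rich RNA, was 4-fold higher (adjusted p = 0.00015). General splicing factors rose less than these: 6 of 23 were called higher, 0 lower, with a median of 0.56. Over all genes tested, 9.93% were called higher and 11.8% lower, with a median of 0.02. Hnrnpa2b1 was among them at 2.39-fold, but its other detected probe differed by only 0.26 on the log2 scale.

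Other large rises lay outside these lists. The imprinted gene Nnat, neuronatin, a small membrane protein of neurons and endocrine cells, had the largest rise of all called genes without overlap: 14.86, 15.43 and 14.49 in OPT-tm and 11.97, 12.58, 10.83, 10.95 and 10.54 in Early-NE (3.55 ± 0.42, 11.7-fold, adjusted p = 6.3e-05). All early mice exceeded the Early-ADC range of 7.87 to 9.90, and Early-NE stood at 43% on the log2 scale and 8.2% on the linear scale. A second Nnat probe, detected on 6 arrays, gave 2.72. Cdkn1c, an imprinted inhibitor of cyclin-dependent kinases, was 3.43-fold higher, and 6 of 9 imprinted growth regulators were called higher and 1, Igf2, lower (median 1.25, and 0.40 on chip 2 alone). The fall of Igf2 was 2.1-fold and was lost without OPT-tm 1 (-0.92) or OPT-tm 2 (-0.94). Ndn, the imprinted gene necdin, showed no separation, with 12.58, 12.78 and 14.49 in OPT-tm and 14.99, 12.88, 13.03, 13.63 and 11.98 in Early-NE. Its difference of -0.02 ± 0.60 changed sign under several settings.

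Whrn (whirlin, a scaffold protein of hair cells), A2ml1 (a protease inhibitor), Pcyt1b (an enzyme of phosphatidylcholine synthesis) and Septin5 (a septin linked to exocytosis) rose by 2.75 to 2.90 on the log2 scale. Of 17 Notch pathway genes 4 were called higher and 0 lower (median 0.51). They included Dner, a neuronal transmembrane protein related to Notch ligands, at 3.6-fold, and Hey1, a repressor switched on by Notch, at 3.69-fold. Hey1 had 14.57, 12.88 and 13.93 in OPT-tm and between 11.03 and 12.52 in Early-NE, all above the Early-ADC range of 9.82 to 10.73.

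Genes of cell division rose together. Of 24 genes of G2 and mitosis, 21 were called higher and 0 lower (median 1.62), 13 of 23 were graded and 8 were reached only in OPT-tm. The mean level of this list was 12.48, 12.44 and 12.48 in OPT-tm and 10.91, 11.47, 10.83, 10.71 and 10.87 in Early-NE, with 10.16 to 10.40 in Early-ADC. The overt tumors were alike, Early-NE 2 stood apart from the other early mice, and no group overlapped another. S phase and DNA replication followed at a smaller size: 15 of 29 were called higher and 0 lower (median 1.04), 3 of 21 graded and 12 reached only in OPT-tm.

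Kif11, the motor that separates spindle poles, had 12.17, 11.57 and 12.71 in OPT-tm and 10.31, 10.77, 10.04, 9.54 and 9.76 in Early-NE, against 9.03 to 9.66 in Early-ADC. Early-NE 4 lay within the Early-ADC range, the other early mice above it, and the rise was 4.19-fold (adjusted p = 0.00023). Foxm1, a factor that drives G2/M genes, was 3.89-fold higher in OPT-tm (11.96 to 12.27) than in Early-NE (9.80 to 10.57; adjusted p = 2.9e-05). Mybl2, which acts with it, had 13.64, 13.36 and 13.82 in OPT-tm and 11.76, 12.38, 11.23, 11.71 and 11.31 in Early-NE. All of these early values exceeded the Early-ADC range of 9.45 to 10.18, and Mybl2 stood at 50.3% on the log2 scale. Rrm2, a subunit of the ribonucleotide reductase that supplies nucleotides for replication, was 3.78-fold higher and graded, and Mcm7, a subunit of the replicative helicase, was 3.16-fold higher and reached only in OPT-tm.

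The G1/S regulators moved unequally. Of 26 genes 9 were called higher and 2 lower (median 0.77). E2f2, an activating E2F factor, had 13.56, 12.89 and 14.15 in OPT-tm and 11.34, 12.10, 11.20, 11.43 and 11.25 in Early-NE (4.19-fold, adjusted p = 0.00014). Ccne2, a cyclin of the G1/S step, was 4.02-fold higher, with a spread in Early-NE from 9.30 in the 15-wk mouse to 11.17 in Early-NE 2. Ccnd1, the D cyclin that answers to growth factors, ran the other way: 9.69, 10.50 and 10.49 in OPT-tm and 13.14, 13.27, 13.24, 13.26 and 14.22 in Early-NE. The difference was -3.20 ± 0.27 (9.18-fold lower, adjusted p = 5.8e-06). Early-NE stood at 3.41% of the way, and its 4 mice of 18 wks lay within the Early-ADC range of 13.07 to 13.94. Ccnd2, another D cyclin, was 2.8-fold lower with a position of 10%, so both called D cyclin losses were reached only in OPT-tm.

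Cdkn1a, the p53 target p21, was 4.38-fold higher in OPT-tm (12.86, 13.14 and 13.38) than in Early-NE (10.65 to 11.23; adjusted p = 4.1e-06), though its other probe detected on most arrays gave 1.35 on the log2 scale. Rb1, the retinoblastoma protein that T antigen binds, was 1.97-fold higher without being called, whereas its other probe gave 1.39 on the log2 scale. Rad54l, a recombination factor, was 3.56-fold higher, one of 5 called among 16 genes of DNA damage response and repair. Of 13 Polycomb and DNA methylation genes 5 were called higher and 0 lower, and Suz12, a core subunit of the H3K27 methyltransferase complex, just missed the fold threshold at 1.96-fold.

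**Figure D4:**
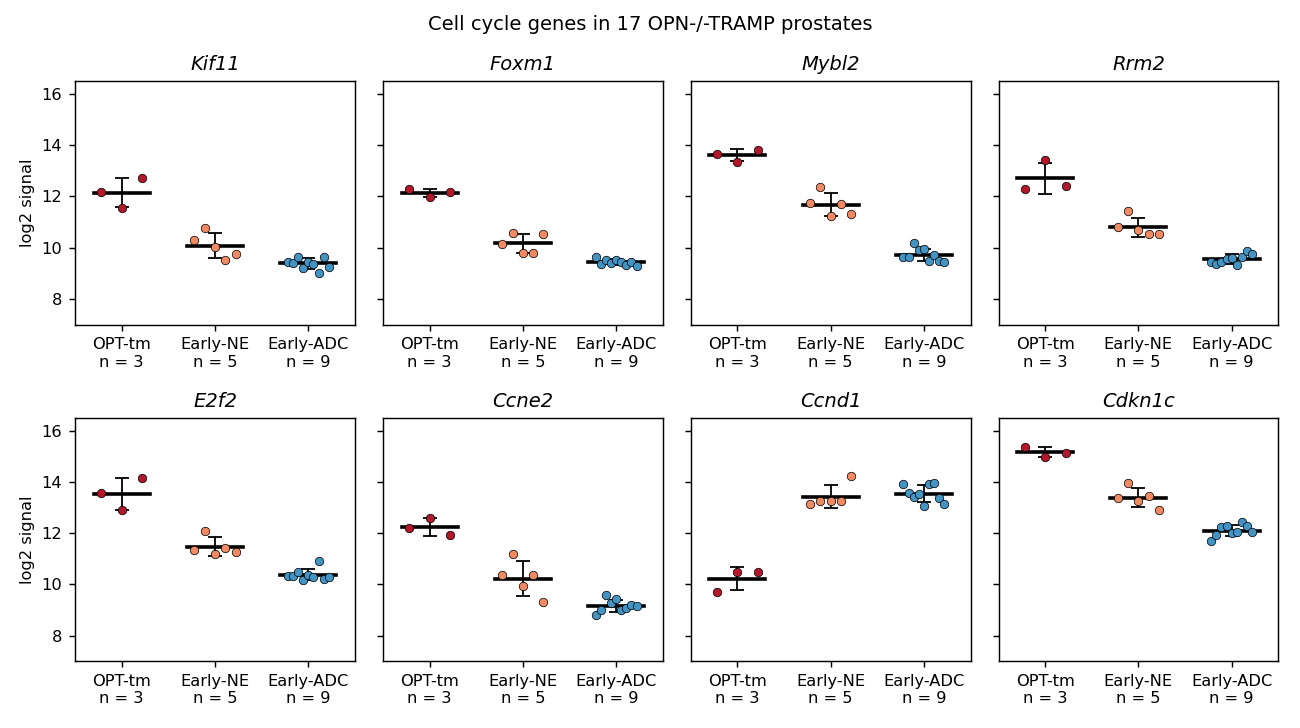
Log2 signals of 8 cell cycle genes in single prostates (points) of OPT-tm (n = 3), Early-NE (n = 5) and OPT18 Early-ADC (n = 9), with mean and SD. Mybl2 and Rrm2 form steps with OPT-tm highest, whereas Ccnd1 is low only in the 3 OPT-tm.

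Promoters of the dividing-cell genes are shown because these genes moved together. They were read from RefSeq (GRCm38.p6) as the 250 bases before the first annotated start of each gene, and searched on both strands for CCAAT, the letters bound by NF-Y, and for TTTGAA, a form of the CHR element of mitotic genes. CCAAT was found in 14 of 20 G2 and mitosis promoters (70%) and in 14 of 26 S phase promoters (53.8%), against 36.4% of the 8662 tested genes with a promoter and 34.5% of all 27025. TTTGAA was found in 35% and 11.5% of the same lists, against 10.7% and 16.3%. The E2F site in 8 letters (TTT, any pair of G or C, then CGC) was found in 5% and 15.4%, against 3.08% and 1.91%. CCAAT and TTTGAA were also found before genes that fell: 4 of 8 promoters of seminal vesicle secretion genes held CCAAT (50%) and 3 held TTTGAA (37.5%). The 200 bases before the start of Kif11 (chr19:37376182-37376381, plus strand), Rrm2 (chr12:24708054-24708253, plus strand) and Mcm7 (chr5:138171884-138172083, minus strand) are given 5′ to 3′ along the gene. Capitals mark CCAAT or TTTGAA, or their complements ATTGG and TTCAAA.
Kif11: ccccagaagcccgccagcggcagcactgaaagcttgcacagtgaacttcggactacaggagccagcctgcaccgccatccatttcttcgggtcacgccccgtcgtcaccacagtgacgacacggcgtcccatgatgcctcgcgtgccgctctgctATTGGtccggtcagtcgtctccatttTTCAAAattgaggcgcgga
Rrm2: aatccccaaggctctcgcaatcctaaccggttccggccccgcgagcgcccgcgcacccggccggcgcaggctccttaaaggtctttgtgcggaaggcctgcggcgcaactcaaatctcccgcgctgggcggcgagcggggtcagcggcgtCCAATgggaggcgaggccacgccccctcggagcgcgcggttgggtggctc
Mcm7: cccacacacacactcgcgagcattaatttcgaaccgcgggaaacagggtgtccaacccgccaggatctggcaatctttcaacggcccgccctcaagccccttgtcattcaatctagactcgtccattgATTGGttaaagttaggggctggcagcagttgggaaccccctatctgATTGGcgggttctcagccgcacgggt
In Kif11 the CCAAT box begins at -45 and the TTTGAA element at -19, in Rrm2 the CCAAT box begins at -50, and Mcm7 has CCAAT boxes at -72 and -26. These matches describe letters in the window and were not tested as binding sites.

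The largest losses exceeded the largest gains, and most losses were counted as reached only in OPT-tm, a class set on the log2 scale. All 9 seminal vesicle secretion genes were called lower in OPT-tm (median -5.64), with mean levels of 8.0, 8.03 and 8.52 in OPT-tm and 12.995 to 14.68 in Early-NE. Early-ADC reached up to 15.56, so this list varied among early prostates of both classes, and only 4 of its 9 genes were counted as reached only in OPT-tm. Svs2, a seminal vesicle protein of the copulatory plug, had 7.83, 7.86 and 8.30 in OPT-tm and 15.56, 15.50, 15.95, 15.88 and 15.86 in Early-NE, within the Early-ADC range of 15.45 to 16.10. It was undetected in all OPT-tm and at least 137-fold lower (adjusted p = 2.6e-10). Tgm4, the prostate transglutaminase that cross-links the plug, was undetected in all OPT-tm and at least 163-fold lower, and Svs4, another seminal vesicle protein, at least 148-fold lower. Early-NE values of Svs2, Tgm4 and Svs4 lay near the top of the scale, where 42 genes stood within 0.5 of the highest signal, so differences among early mice may be compressed there.

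Seminal vesicle is a neighbouring gland, and how much of it was taken with each organ was not stated in the sources used here. Prostate products showed the same step. Of 15 prostate secretory and antimicrobial genes, 10 were called lower and 0 higher (median -2.09). Pbsn, probasin, whose rat promoter drives the transgene, had 7.71, 7.73 and 7.63 in OPT-tm, undetected in all 3, and 9.91, 9.94, 11.61, 11.65 and 11.28 in Early-NE. Early-NE 1 and 2 lay just below the Early-ADC range of 10.27 to 12.00 and the 3 others within it, and the fall was at least 4.68-fold (adjusted p = 9.5e-05). Transgene RNA was not analysed here.

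Androgen response elements share the half-site TGTTCT. It was found in the promoters of 5 of 8 seminal vesicle secretion genes (62.5%), against 11.5% of tested genes and 16.2% of all genes, and in 3 of 13 promoters of the luminal epithelium list (23.1%). The seminal vesicle list also exceeded tested genes for CCAAT (50%) and TTTGAA (37.5%), so its high share is not particular to TGTTCT. These genes are few, several are members of the Svs series, and binding was not tested. The 200 bases before the start of Svs5 (chr2:164332565-164332764, plus strand) and of Pbsn (chrX:77853501-77853700, minus strand) are shown because both were counted as reached only in OPT-tm. TGTTCT or its complement AGAACA is in capitals, beginning at -199 and -95.
Svs5: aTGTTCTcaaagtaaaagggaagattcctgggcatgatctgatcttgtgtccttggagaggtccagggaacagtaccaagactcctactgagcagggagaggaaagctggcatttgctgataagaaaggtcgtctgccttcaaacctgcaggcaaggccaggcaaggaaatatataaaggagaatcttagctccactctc
Pbsn: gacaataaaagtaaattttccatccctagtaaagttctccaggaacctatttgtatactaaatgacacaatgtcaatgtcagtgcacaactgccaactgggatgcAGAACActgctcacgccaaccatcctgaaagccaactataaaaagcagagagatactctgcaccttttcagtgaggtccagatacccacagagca
Svs5 itself had 8.44, 8.70 and 9.62 in OPT-tm and 15.91 to 16.10 in Early-NE, and was detected in 2 of 3 OPT-tm.

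Genes of the luminal program were lower with few exceptions. Of 17 genes of the luminal epithelium list 14 were called lower and 0 higher (median -2.32), and all 14 were reached only in OPT-tm. Krt8, a luminal keratin, had 11.61, 11.73 and 11.27 in OPT-tm and 15.12, 14.64, 14.72, 14.51 and 14.69 in Early-NE, a 9.19-fold difference (adjusted p = 2.9e-07), and Early-NE lay within the Early-ADC range of 14.46 to 15.18. Tmprss2, an androgen-driven serine protease, was 11.6-fold lower (adjusted p = 7.1e-08) and Psca, a surface antigen of prostate epithelium, 16.6-fold lower (adjusted p = 5.6e-07). Foxa1, a factor that opens chromatin in luminal cells, did not fall: it had 14.58, 14.62 and 14.59 in OPT-tm and between 13.88 and 14.31 in Early-NE, 1.36-fold higher without being called (adjusted p = 0.02).

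Some basal genes and most of the junction genes were lower in OPT-tm. Of 11 basal genes 5 were called lower and 0 higher (median -0.99). Krt14, a basal keratin, was undetected in all OPT-tm (8.24, 8.29 and 8.74) and had 11.68, 11.54, 12.17, 12.15 and 12.50 in Early-NE, at least 10.2-fold lower in OPT-tm (adjusted p = 7.6e-07). Trp63, the transcription factor that maintains basal cells, was at least 5.29-fold lower (adjusted p = 5.1e-07). Of 19 junction genes 14 were called lower and 1 higher (median -1.40). Pkp2, a desmosome protein, was 7.27-fold lower (-2.86 on the log2 scale, with other probes at -2.63 and -1.61) and Esrp1, an epithelial splicing factor, 6.86-fold lower, whereas the single riser was Cdh2, N-cadherin. Cdh2 had 9.44, 9.62 and 9.72 in OPT-tm and 8.49, 8.61, 8.40, 8.07 and 8.17 in Early-NE (2.36-fold, adjusted p = 9.9e-05), and was detected in 2 of 5 Early-NE and 0 of 9 Early-ADC. Its other probes, detected on 1 or 2 arrays, gave 0.89, 0.65 and 0.79 on the log2 scale, below the 2-fold line.

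**Figure D5:**
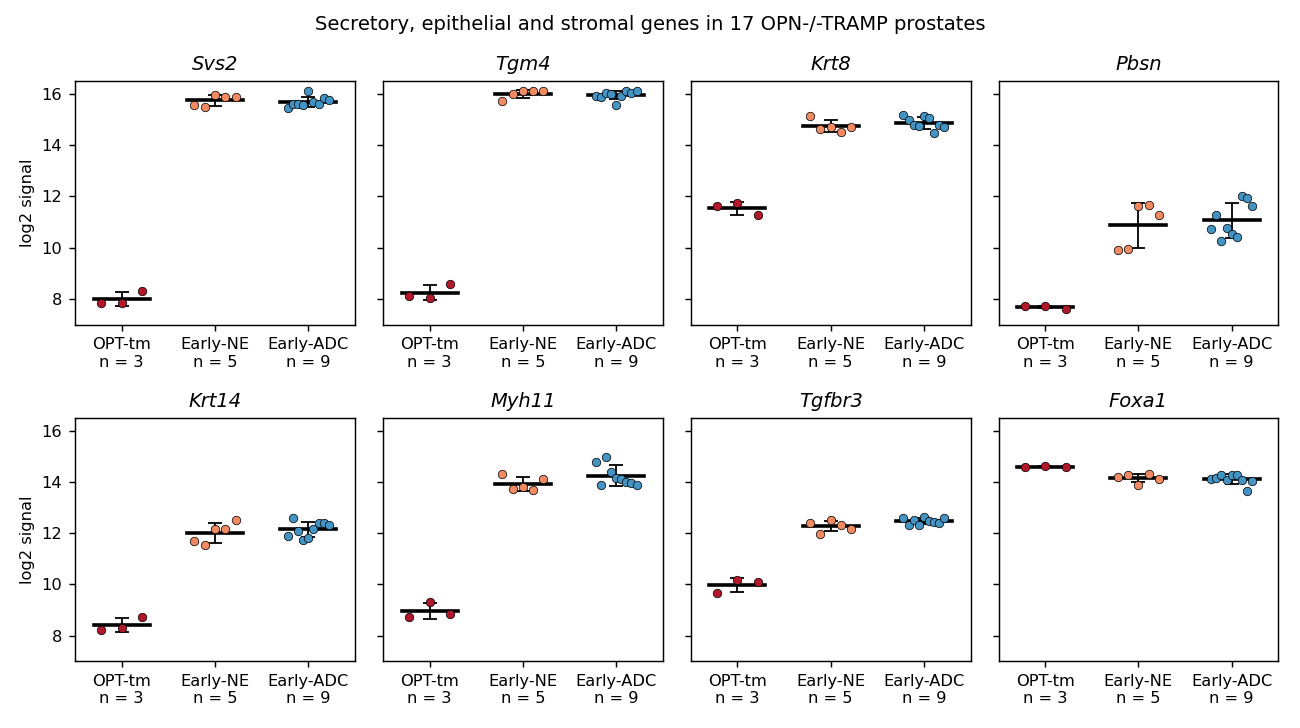
Log2 signals of 8 secretory, epithelial and stromal genes in single prostates (points) of OPT-tm (n = 3), Early-NE (n = 5) and OPT18 Early-ADC (n = 9), with mean and SD. For Svs2, Tgm4, Krt8 and Myh11 the Early-NE points lie beside Early-ADC and all 3 OPT-tm far below, while Foxa1 is slightly higher in OPT-tm.

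The secretory apparatus followed the secretions in part: of 17 genes of ER folding and secretion 9 were called lower and 0 higher (median -1.03). Creld2, an ER stress-induced chaperone, was 4.17-fold lower (adjusted p = 5.6e-06), while Xbp1, a regulator of secretory cells, overlapped between OPT-tm (15.07, 14.10 and 14.02) and Early-NE (14.94 to 15.11) and was not called.

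Of the TGF-beta, activin and BMP pathway, which restrains epithelial growth, 10 of 29 genes were called lower and 0 higher (median -0.16), all 10 reached only in OPT-tm. Tgfbr3, the co-receptor betaglycan, had 9.65, 10.16 and 10.09 in OPT-tm and 12.38, 11.98, 12.51, 12.33 and 12.17 in Early-NE (4.95-fold lower, adjusted p = 2.4e-06). Its second probe gave -1.03 on the log2 scale. Tgfbr2, the type II receptor, was 2.33-fold lower with a second probe at -0.31, and Tgif1, a corepressor of SMAD signaling, was 4.1-fold lower with other probes at -0.44 and -0.68, so the size for both depends on the probe. Smad3, which carries the signal to the nucleus, had 8.70, 8.75 and 8.76 in OPT-tm and 9.62 to 10.24 in Early-NE (2.26-fold lower, adjusted p = 0.00015). Tgfbr1, the type I receptor, was 1.95-fold higher without being called, and its next most detected probe gave 0.15. Counted over the 15 genes that the study named for its arrays or stains and that were tested, 5 were called higher and 6 lower, and since the study chose most of them on these samples the count is no independent evidence of direction.

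Genes of stromal and neighbouring tissues were lower in the overt tumor. Of 13 smooth muscle genes 11 were called lower and 0 higher (median -2.71), with mean levels of 9.56, 9.59 and 9.45 in OPT-tm and 12.12 to 12.52 in Early-NE. Myh11, smooth muscle myosin, had 8.74, 9.33 and 8.84 in OPT-tm and 14.30, 13.73, 13.79, 13.68 and 14.10 in Early-NE (30.9-fold lower, adjusted p = 3.4e-08). All 11 skeletal muscle genes (median -3.04) and 7 of 8 urothelial genes (median -1.87) were also called lower. Acta1, skeletal muscle actin, was 41.2-fold lower and Upk1b, a uroplakin, 14.8-fold lower. Of 7 adipocyte genes 4 were called lower, among them Adipoq, adiponectin, undetected in all OPT-tm and at least 6.77-fold lower. Early-NE lay at 5.31% on the smooth muscle list, -0.56% on the urothelial list and -13.6% on the skeletal muscle list, and further along at 16.9% on the adipocyte list.

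Fibroblasts were affected unequally. Of 18 fibroblast and matrix genes 6 were called lower and 0 higher (median -0.47), and Early-NE stood at 12.6% on the mean of this list. Dcn, the matrix proteoglycan decorin, had 12.14, 13.21 and 12.22 in OPT-tm and 15.29, 15.59, 15.24, 15.18 and 14.87 in Early-NE (6.54-fold lower, adjusted p = 9.9e-06). The fibrillar collagen Col1a1 had 9.69, 10.85 and 10.13 in OPT-tm and 9.28 to 10.05 in Early-NE, a difference of 0.53 that was not called.

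Genes near tumor level in the early class were rare, and none of the 41 gene lists held one. The 21 such genes differed between OPT-tm and Early-ADC by only 1.002 to 1.29 on the log2 scale, just past the call, and 7 of them were undetected in all OPT-tm. For 16 of the 21 the OPT-tm and Early-NE arrays still did not overlap, as for 48.6% of all genes tested. Ramp2, a subunit of the adrenomedullin receptor, had the largest gap from Early-ADC: 12.49, 12.16 and 12.76 in OPT-tm and 12.01, 12.21, 11.81, 11.86 and 11.64 in Early-NE, all above the Early-ADC range of 10.92 to 11.41. Dek, a chromatin protein of dividing cells, had 13.49, 12.99 and 12.81 in OPT-tm and 12.30, 12.81, 12.87, 12.35 and 12.46 in Early-NE. Tuba3b, an alpha-tubulin, stood at 63.9%. Unlike Ramp2, Dek and Tuba3b, most of the 21 genes lay closer to Early-ADC than to OPT-tm, as Mapre1 did at 39.2%. The rule bounds only the distance from OPT-tm, so the class does not place these genes at tumor level. The membership of this class was unstable: 9 of the 21 remained among 21 with the authors' normalized values and 1 of the 21 among 20 after another background correction.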

How the data were processed

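RNA of 1 prostate per mouse was hybridised to 29 Illumina MouseRef-8 v2.0 arrays on 4 chips. The authors exported unnormalized BeadStudio signals, an intensity per probe on a linear scale, each with a detection p-value deposited beside it. The authors also deposited log2 values from lumi after robust spline normalization, which were used here as an alternative.

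Of 25697 probes, 23978 had 1 gene symbol. Signals were taken to log2 with no background correction, so fold changes of low genes are understated, and quantile normalized over 29 arrays. Probes detected at p under 0.01 on at least 1 array were kept, and a gene with several probes was represented by the one most often detected. Each pair of groups was fitted alone with limma 3.58.1 (R 4.3.3; lmFit, eBayes), and p-values were adjusted over 10768 genes by Benjamini-Hochberg. Calls required an adjusted p under 0.05 and a 2-fold change. The scripts were tested on simulated data. Figures were drawn with matplotlib 3.10.9.

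The groups, the 41 gene lists and the rule for genes (the 10 largest rises and falls, the largest of each list and class, and genes the study names) were chosen with earlier results of these data known. Lists held 768 genes, of which 576 were tested and 96 had no named probe. Genes named in the text are a selection of those found by the rule. Nothing in the labels says that mice came from separate litters, so p-values measure only the spread between these mice. The share of detected probes was 41.9% to 49.4% in OPT-tm and 39.3% to 51.8% in Early-NE, and precision is limited by how few arrays each group has. No 2 of the 406 pairs of arrays held identical values. Alternatives were the authors' values, other background corrections, normalizations, filters and probes, the chip as a block, and leaving out each array.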

Additional observations from a re-analysis of the deposited data

Results flagged for a closer look

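Values of 1 early mouse stood far from the other 4 for 13 of the 41 lists and 94 genes checked in Early-NE (gap over range above 0.71), and chance gives this for about 1 in 20 groups. Early-NE 2 was high for G2 and mitosis, with a mean log2 level of 11.47 against 10.71 to 10.91 in the others, and for E2f2, with 12.10 against 11.20 to 11.43. Early-NE 5, the 15-wk mouse, was high for prostate secretory and antimicrobial proteins (13.24, others 12.62 to 12.80), for Rest and neuronal repression (11.05, others 10.78 to 10.86) and for Ccnd1 (14.22, others 13.14 to 13.27). The same mouse was low for fibroblasts and matrix (10.995, others 11.31 to 11.38) and for Ogn, the matrix proteoglycan mimecan (11.29, others 12.13 to 12.28). Early-NE 3 was high for interferon-induced genes (11.19, others 10.64 to 10.73), for peripheral nerve and glia (11.43, others 11.06 to 11.15) and for Upk1b (15.08, others 14.65 to 14.77), and low for Svs4 (15.22, others 15.94 to 16.10). Early-NE 1 was high for neutrophils (8.03, others 7.82 to 7.86) and low for Tgm4 (15.72, others 15.9965 to 16.10). What sets these mice apart was not tested.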

How the results depend on the processing

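Of the 2340 calls, 87.6% to 99.7% were shared under the settings that refitted the comparison, the lowest share with the chip as a fixed block. Genes called higher numbered 1700 with neqc background correction, and 2788 higher and 2596 lower genes passed with no fold threshold. The class near tumor level (21 genes) was small and unstable: it held 3 genes with array medians set equal, 41 with no detection filter, 36 with the chip as a fixed block, 43 against 13 OPN-/- Early-ADC prostates, 0 under a 1.5-fold margin, and 9 to 31 when 1 array was left out. Under the 1.5-fold margin 356 rises were reached only in OPT-tm, 632 rises were graded and 191 falls were graded. Graded rises numbered 565 with neqc. Graded falls (8) numbered 15 with the authors' values, 94 with neqc, 75 with array medians set equal, 3 and 2 with the chip as a fixed and a random block, and 7 to 14 when 1 array was left out.

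List medians of OPT-tm minus Early-NE kept their sign in the 20 lists examined most closely. With neqc they were 2.17 for NE transcription factors, 0.90 for G1/S genes, 1.81 for imprinted genes, -2.91 for luminal, -1.39 for basal, -7.73 for seminal vesicle, -2.66 for prostate secretory, -2.34 for junction, -4.07 for smooth muscle, -2.69 for urothelial, -4.67 for skeletal muscle and 0.77 for Notch genes. With no detection filter they were 0.37 for NE transcription factors, 0.44 for dense-core granules, 0.67 for neuronal RNA-binding proteins, -1.82 for luminal and 0.21 for Notch genes. With detection on at least 3 of the 8 arrays they were 1.98 for dense-core granules, -2.61 for luminal, -3.14 for smooth muscle and 0.84 for Notch genes. With the chip as a fixed block they were 1.29 for neuronal RNA-binding proteins, -2.06 for luminal and 0.39 for Notch genes. On chip 2 alone they were 0.20 for dense-core granules, 1.25 for neuronal RNA-binding proteins, 1.28 for G2 and mitosis, 0.40 for imprinted, -2.51 for smooth muscle, -1.54 for urothelial and 0.30 for Notch genes. The smooth muscle median was -2.96 with the authors' values, G1/S genes gave 0.94 with array medians set equal, and the Notch median ran between 0.23 and 0.50 when 1 array was left out. Among single genes, Ndn turned positive with array medians set equal (0.14) and without OPT-tm 1 (0.33), OPT-tm 2 (0.24), Early-NE 1 (0.40) or Early-NE 4 (0.07), running between -0.62 and 0.40 when 1 array was left out, and Sox18 was -0.036 on chip 2 alone. The cause of these shifts was not tested. In 7 cases a call of a named gene was lost and in 17 a gene that was not called became so, for Rb1, Suz12 and Tgfbr1 close to the 2-fold line. No paired analysis was possible because the labels give the groups no shared replicate numbers. Signals near background or near the top of the scale limit the sizes of the largest falls and of genes undetected in OPT-tm.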

Other observations

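Several cell types and programs that the comparison above does not turn on were measured in the same arrays. Endothelial genes stayed close: of 16, 2 were called higher in OPT-tm than in Early-NE and 0 were called lower (median 0.17 on the log2 scale). Over all genes tested, 9.93% were called higher and 11.8% lower. Ets1, an ETS factor of vessels, lymphocytes and invasive cells, had 12.35, 11.78 and 12.42 in OPT-tm and 10.50 to 10.86 in Early-NE (2.76-fold, limma adjusted p = 6.1e-05), whereas Sox18, a vessel factor, overlapped, with 9.80 in OPT-tm 2 against 9.98 in Early-NE 2. Of 20 interferon-induced genes 7 were called lower and 0 higher (median -0.71). Oasl2, an interferon-induced oligoadenylate synthetase-like protein, had 11.65, 12.17 and 12.16 in OPT-tm and 13.40 to 14.23 in Early-NE (3.26-fold lower, adjusted p = 9.2e-05). Of 10 genes of MHC class I and antigen processing 4 were called lower, among them H2-D1 at 4.54-fold, whose probe may also read near-identical class I copies. Of 17 macrophage and MHC class II genes 4 were called lower (median -0.27), including H2-Aa at 2.76-fold.

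Genes of energy metabolism had no common direction. Of 18 genes of glycolysis and hypoxia 3 were called higher and 2 lower (median 0.08), beside 9.93% and 11.8% of all genes tested. The phosphofructokinase Pfkp had 12.23, 12.82 and 12.19 in OPT-tm and 9.83 to 11.06 in Early-NE (3.94-fold, adjusted p = 0.00026), while the hexokinase Hk2 had 11.37, 12.13 and 11.84 in OPT-tm and 13.41 to 13.78 in Early-NE (3.51-fold lower, adjusted p = 2.2e-05). Early-NE of both lay at 10.6% and 11.5% of the way from Early-ADC. The 19 oxidative phosphorylation genes had a median of 0.01, and the interval lay within 2-fold for 17 of them, against 58.6% of all genes tested. The 14 ribosomal genes had a median of -0.47.

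The 3 overt tumors differed from each other in a few lists. The mean level of 4 neutrophil genes was 9.70 in OPT-tm 1 and 7.85 and 7.84 in OPT-tm 2 and 3, against 7.82 to 8.03 in Early-NE. OPT-tm 2 lacked detectable Scg2, and its Vegfa, a vessel growth factor, was the highest of the 3 (12.56, 13.45 and 11.60 in OPT-tm 1 to 3 and 11.09 to 11.65 in Early-NE). Vegfa was called higher (2.23-fold) with overlap, and without OPT-tm 2 its difference was 0.70 and not called. A second Vegfa probe, detected on all 29 arrays, gave 0.56, beside 1.16 for the one used. The median SD over the genes called higher was 0.32 in OPT-tm and 0.33 in Early-NE, and 0.21 in Early-ADC.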
